A study of Mus musculus with 8 samples.

Results

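Transcript levels of interleukin-12 (IL-12) family genes were compared between liver macrophages of C57BL/6 mice on a western diet (WD, 4 libraries) and on a normal diet (ND, 4 libraries). C57BL/6 is a widely used inbred strain. The genes were chosen by symbol in the authors' table of genes that differ between the diets, and 7 were found there among 2386 listed genes: Il12a, Il12b and Il27, which encode cytokine subunits, and Il12rb1, Il12rb2, Il27ra and Il6st, which encode receptor chains. The series design gives 4 mice per diet. No genotype, transgene or drug is named, and the diets' makeup and length, the animals' age and the way the cells were isolated are not stated in the labels used here.

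The table is headed WDV and deposited as WDV against NDV. The V is not explained, and both names were taken to mean the WD and ND libraries. The table holds 1 fold change per gene and no value for a single library, so the spread between animals can be read only through the standard error (SE) that the authors gave. Depth per library is unknown. Every listed gene had an unadjusted p-value below 0.05 and a log2 fold change beyond 1 in size. The family genes were therefore chosen by the contrast in which they are described, and their fold changes and p-values are a description and not a test of the family. None of 15 resident macrophage markers, such as Adgre1 and Clec4f, was listed, and their levels were not analysed here, so the label of the cells could not be checked against them.

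IL-12 family cytokines are pairs of an alpha and a beta subunit, made mainly by macrophages and dendritic cells once microbial sensors are triggered. IL-12 joins the Il12a product (p35) to the Il12b product (p40) and acts on T and NK cells through the Il12rb1 and Il12rb2 chains, which signal through the kinases JAK2 and TYK2 and the transcription factor STAT4 to induce interferon-gamma. IL-27 joins the Il27 product (p28) to the Ebi3 product and acts through the Il27ra chain and gp130, the Il6st product, which is shared with the receptors of interleukin-6, leukaemia inhibitory factor and oncostatin M and signals through STAT3. IL-23 shares p40 and the Il12rb1 chain with IL-12.

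All 3 listed cytokine subunit genes and both IL-12 receptor chain genes were higher in WD macrophages, whereas both chains of the IL-27 receptor were lower. An adjusted p-value below 0.05 was reached by 5 higher and 2 lower genes of the family in the authors' deposited table. The authors' adjusted p-values cover 17531 genes, a number recovered from those values, and these genes are called all tested genes here. Of these, 3.0% were higher and 8.35% lower with an adjusted p below 0.05 and a fold change beyond 2 in the authors' deposited table. Genes with a p-value but no adjusted p are not among them. All calls below carry both limits, since the table lists no gene under 2-fold. Since the genes were taken from this table, nothing follows from the comparison of these shares. The gene lists used below were chosen with earlier results of these data known, so their shares are a description as well. Of the 10 genes in the whole family, Il23a, Ebi3 and Il23r were not listed, so that the partner of p28 and the parts specific to IL-23 have no value here. The family members nearest to the listing limit of 1 were Il27ra at -1.40 and Il27 at 1.41 (log2 fold change, from the authors' deposited table). The 3 unlisted genes may have missed the fold limit or the p limit, or may not have been measured.

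**Figure D1:**
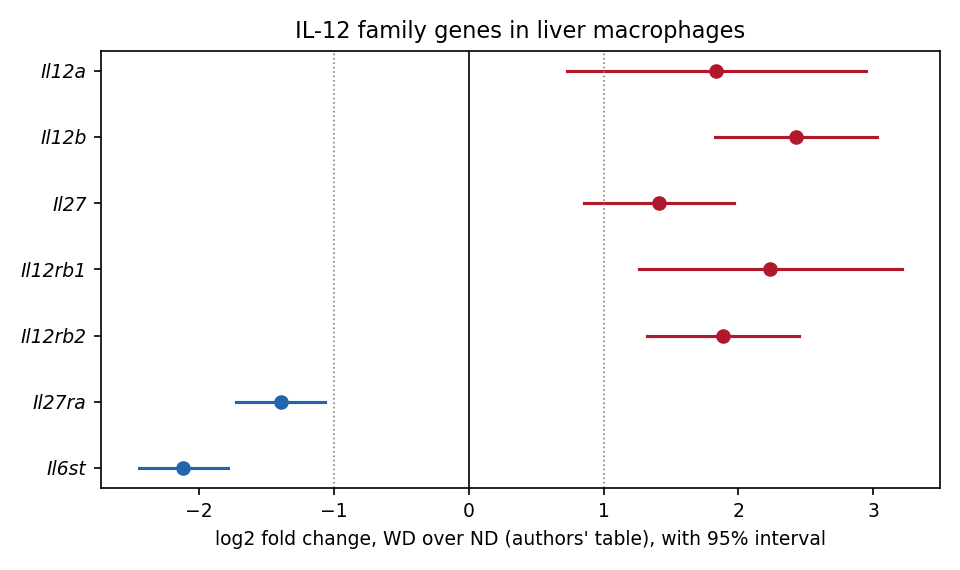
Log2 fold change of each listed IL-12 family gene, WD over ND, from the authors' deposited table, with bars for the 95% interval and dotted lines at the listing limit of 1. The intervals of Il12a and Il27 cross the limit at 0.72 and 0.85, and those of the other 5 genes lie beyond it.

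Il12b and Il6st moved furthest in their directions, and both are shown with the bases before their transcription start. The windows are the 250 bases before the RefSeq start, in build GRCm38.p6, on the strand of the gene, 5′ to 3′, and capitals mark any motif found. Il12rb2 is shown as the signalling chain of the IL-12 receptor. Of the 7 genes, 4 (Il12a, Il12b, Il12rb2 and Il6st) matched an entry. The windows lie at chr11:44399813-44400062 (plus strand) for Il12b, chr6:67376189-67376438 (minus strand) for Il12rb2 and chr13:112463820-112464069 (plus strand) for Il6st.
Il12b: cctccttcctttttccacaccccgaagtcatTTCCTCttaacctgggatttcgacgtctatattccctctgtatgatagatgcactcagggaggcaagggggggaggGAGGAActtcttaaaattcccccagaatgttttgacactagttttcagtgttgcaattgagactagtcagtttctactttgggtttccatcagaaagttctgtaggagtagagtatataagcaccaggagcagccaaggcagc
Il12rb2: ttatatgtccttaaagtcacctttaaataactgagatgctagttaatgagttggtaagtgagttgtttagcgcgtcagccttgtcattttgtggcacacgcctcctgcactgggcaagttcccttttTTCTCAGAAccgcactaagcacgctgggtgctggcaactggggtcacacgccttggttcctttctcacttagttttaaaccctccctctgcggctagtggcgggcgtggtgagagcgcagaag
Il6st: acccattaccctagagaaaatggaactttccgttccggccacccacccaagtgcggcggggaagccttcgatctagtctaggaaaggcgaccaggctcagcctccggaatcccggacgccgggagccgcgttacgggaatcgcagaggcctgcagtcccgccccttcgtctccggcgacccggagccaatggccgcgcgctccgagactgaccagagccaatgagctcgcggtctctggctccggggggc

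The capitals in the Il12b window are the core GAGGAA of the myeloid factor PU.1, once on each strand, from 219 to 214 and from 143 to 138 bases before the start. This core was held by 23.3% of all 32851 windows of the same length, so its presence is common. In the Il12rb2 window the capitals are a STAT motif, TTCNNNGAA, from 123 to 115 bases before the start, which 7.02% of all windows held. No motif searched was found in the Il6st window. Both windows of Il12a, which has a pair of RefSeq starts, held the wider STAT motif with 4 free bases between TTC and GAA, found in 5.85% of all windows. The core of the interferon response element (2.98% of all windows), the NF-kB motif (0.356%), the AP-1 motif TGAGTCA (4.46%) and the C/EBP motifs TTGCNNAA (9.56%) and TTGCNNCAA (1.74%) were in none of the 5 windows of these 4 genes. All motifs were searched on both strands, and no match in these windows overlapped another. Only these exact letters were searched, so a site that departs from them would be missed. The lack of a match therefore says nothing of a factor's binding within these windows or elsewhere. The windows differed in base composition. Il12b had 3 CpG dinucleotides at 46.0% GC and Il6st had 26 at 66.0%, while Il12rb2 had 10 at 50.0%, against medians of 6 and 52.4% over all windows.

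Il12b, the gene of the p40 subunit shared by IL-12 and IL-23 (ENSMUSG00000004296, chromosome 11, 44400063 to 44414033, mm10, protein-coding), had the largest rise of the family. The authors' deposited table gave a log2 fold change of 2.43 ± 0.31 (SE, 4 libraries per diet), a 5.37-fold rise with a 95% interval of 3.54-fold to 8.15-fold and an adjusted p of 7.21e-14. With 4 libraries in each group, the deposited mean normalized count of 194 and this fold change imply a mean of 327 in WD and 60.8 in ND. By size this was the 82nd of 706 listed rises and by p-value the 40th. The SE was above the median of 0.22 for the 274 listed genes with a mean count within 1.5 times its own, in the authors' deposited table. It was also 3.04 times the smallest SE that counting error alone would give at the implied means, so counting error was the smaller part of it.

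Il12a encodes p35, which pairs with p40 to make IL-12 (ENSMUSG00000027776, chromosome 3, 68690644 to 68698547). A 3.57-fold rise stood in the authors' deposited table (log2 fold change 1.83 ± 0.57, adjusted p 0.00623). The interval of 1.65-fold to 7.70-fold was wide. The implied means were 25.5 normalized counts in WD and 7.16 in ND, from a deposited mean of 16.3. Il12a was the least certain of the 7 genes, at rank 363 of 706 rises by p-value. Its interval contained the fold change of Il12b, so the rise of p35 could not be told from that of p40 in size.

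Il27, the gene of p28 (ENSMUSG00000044701, chromosome 7, 126589010 to 126594941), rose least of the 5 higher genes. The authors' deposited table gave it a log2 fold change of 1.41 ± 0.28, or 2.65-fold (interval 1.80 to 3.90, adjusted p 7.93e-06). The implied means were 49.9 in WD and 18.8 in ND. The intervals of Il27 and Il12b on the log2 scale, 0.85 to 1.96 and 1.82 to 3.03, overlapped by a narrow margin, and the difference between these genes was not tested.

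The receptor chains of IL-12 rose alongside its subunits but at low counts. Il12rb2, the signalling chain (ENSMUSG00000018341, chromosome 6, 67291318 to 67376188), had a log2 fold change of 1.89 ± 0.29 in the authors' deposited table, 3.70-fold with an interval of 2.50 to 5.46 and an adjusted p of 9.57e-10. The implied means were 58.1 in WD and 15.7 in ND. Il12rb1, the chain shared with the IL-23 receptor (ENSMUSG00000000791, chromosome 8, 70808449 to 70821424), had 2.23 ± 0.50 in the authors' deposited table, 4.71-fold with an interval of 2.39 to 9.25 and an adjusted p of 6.46e-05. The deposited mean of 14.0 was the lowest of the family and implies 23.2 in WD and 4.92 in ND. For both chains the SE was close to what counting allows, at 1.40 and 1.39 times the smallest possible SE, so depth set much of their precision. T and NK cells are the main known bearers of these chains. Of 23 markers of those cells, 12 (52.2%) were called higher, beside 3.0% of all tested genes, and 9 were not listed, as given below. Whether those cells carried the rise of these chains was not tested.

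Il6st, the gene of gp130 (ENSMUSG00000021756, chromosome 13, 112464070 to 112510086), was the most abundant member and the one with the smallest p-value. It had -2.12 ± 0.17 on the log2 scale (adjusted p 1.23e-34) by the authors' deposited table, which means 4.34-fold lower in WD with an interval of 3.46 to 5.44. The deposited mean of 5130, the 13th highest of all listed genes, implies 1922 normalized counts in WD and 8338 in ND. It ranked 111th by p-value among all listed genes, and every gene ahead of it was lower in WD as well. Depth was no limit here, since the SE was 9.15 times the smallest that counting allows.

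Il27ra encodes the chain that gives the IL-27 receptor its specificity (ENSMUSG00000005465, chromosome 8, 84030294 to 84042589). It was 2.63-fold lower in WD in the authors' deposited table (interval 2.10 to 3.30), with a log2 fold change of -1.40 ± 0.17 and an adjusted p of 2.05e-15. The implied means were 141 in WD and 372 in ND. The IL-27 receptor thus had both chains lower in the libraries in which the p28 subunit was higher.

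**Figure D2:**
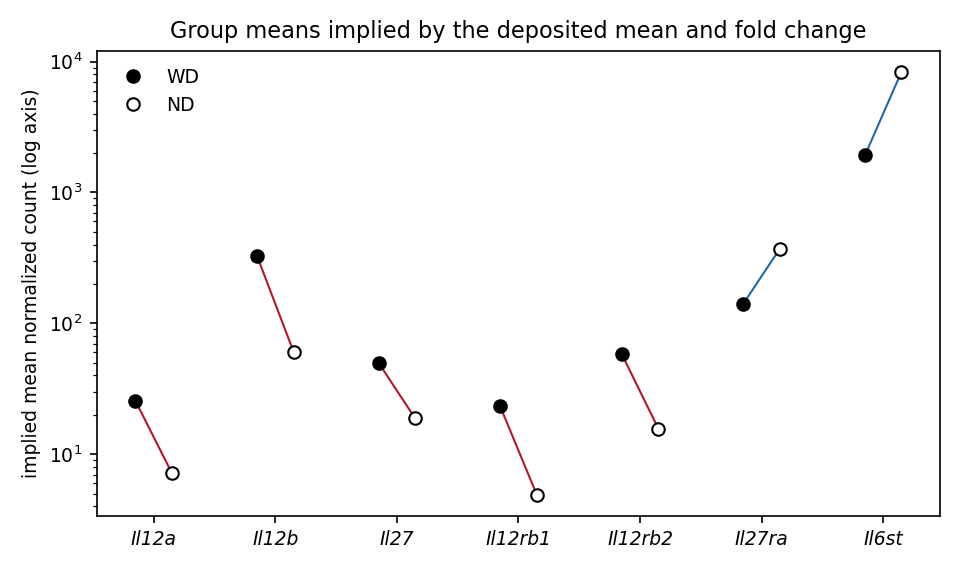
Mean normalized count in WD (filled, left) and ND (open, right) that the deposited mean and fold change of each gene imply for groups of equal size, on a log axis. Lines join the groups, red where WD is higher and blue where it is lower. Il6st falls to 1922 in WD, against 8338 in ND, and stays the highest of the 7 genes in both groups.

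The order of the family by level changed with diet. Per kilobase of exon, Il6st had an implied 173 normalized counts in WD and 751 in ND. Il12b had 166 in WD and 30.9 in ND, which put it close below Il6st under WD. Il27ra had 40.4 per kilobase in WD, under Il27 at 48.9, whereas in ND it had 107, over Il27 at 18.4. The lowest levels per kilobase were those of Il12rb2 (15.3 in WD and 4.14 in ND), Il12a (15.0 and 4.21) and Il12rb1 (5.64 and 1.20). Il12b exceeded Il12a by a ratio of 11.1 per kilobase in WD and 7.35 in ND, so p40 transcripts outnumbered those of p35 under both diets. Since no library's value is known, which neighbours in this order differ beyond their spread could not be tested. Exon lengths take all annotated transcripts together, 10 for Il6st and 1 for Il27, and would be shorter if fewer are used.

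**Figure D3:**
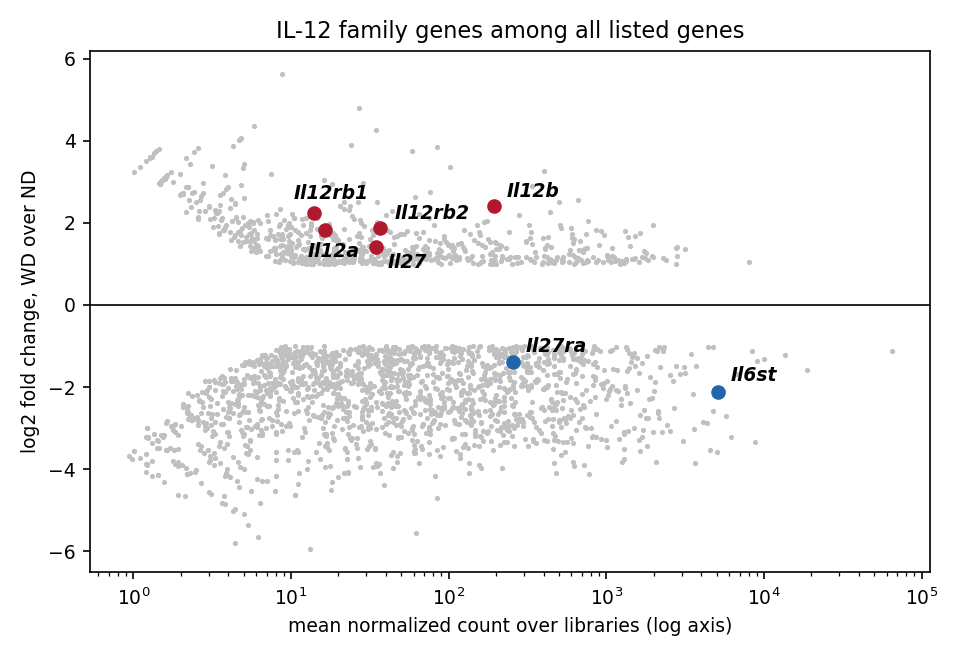
Log2 fold change, WD over ND, against mean normalized count (log axis) for all 2386 listed genes (grey), with the IL-12 family in red (higher in WD) and blue (lower). Il12b, at a mean count of 194 and log2 2.43, stands among the higher rises at its count, and Il6st, at 5130, lies at the right end of the listed falls.

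The 5 higher genes had a median log2 fold change of 1.89, beside 1.34 for the 526 genes called higher in the authors' deposited table. The falls of -2.12 and -1.40 stood beside a median of -2.10 over the 1464 genes called lower in that table. These medians describe genes that the listing limits selected. In position the members had little in common. Only Il12rb1 and Il27ra share a chromosome, and they lie far apart on it. Within 100 kb of 4 of them lay 5 other listed genes, of which 3 were called, all lower in WD. Of all 2386 listed genes, 1464 were called lower and 526 higher, so no local pattern follows from this count. Il27, Il12rb2 and Il27ra each overlap a gene on the opposite strand (Apobr, Serbp1 and Palm3), none of them listed. Whether counting used strand is not stated, and reads from such pairs cannot be told apart without it.

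The deposited enrichment was run by the authors on genes with a positive fold change, so it could hold the 5 higher members but neither Il6st nor Il27ra. All 5 stood together in the Gene Ontology term for positive regulation of interferon-gamma production, with 20 genes and a Benjamini p of 1.53e-16 in the authors' deposited table. They also stood together in the KEGG pathway of cytokine-cytokine receptor interaction (31 genes, Benjamini p 5.54e-16, in the authors' deposited table). Il12a, Il12b and both IL-12 receptor chains were in positive regulation of T cell proliferation (14 genes, 5.78e-10), Il12a and Il12rb2 in response to lipopolysaccharide (20 genes, 2.57e-10), and Il12b and Il12rb1 in cellular response to interferon-gamma (16 genes, 3.93e-10), by the Benjamini p of the authors' deposited table. Of its 47 KEGG pathways with a Benjamini p below 0.05, 18 held both IL-12 subunit genes and 20 held any member. Of its 132 Gene Ontology terms below the same limit, 10 held both and 34 any member. Terms share genes, and each rests on the same fold changes as above.

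Downstream of the receptors, the signalling genes moved both ways. Of 11 kinase, STAT and SOCS genes, 1 rose and 3 fell by the authors' deposited table, and 7 were not in it. Those that moved are 9.09% and 27.3% of the list, beside 3.0% and 8.35% of all tested genes. Stat4, the factor that IL-12 activates, rose 2.58-fold (log2 1.37 ± 0.21, adjusted p 1.25e-09) in that table. The 3 lower genes in the authors' deposited table were Socs3 (-1.48 ± 0.16), whose product inhibits gp130 signalling and is induced by STAT3, Jak1 (-1.02 ± 0.11), the kinase bound to gp130, and Socs1 (-1.25 ± 0.23), an inhibitor of interferon signalling. Jak2, Tyk2 and Stat3 were not listed.

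Some other receptor genes of gp130 ligands were lower. Of 14 cytokine and receptor genes of this group, the authors' deposited table held 3, all lower, and 11 were not listed. This is 21.4% of the group beside 8.35% of all tested genes. The 3 were all partner chains of gp130. Lifr, for leukaemia inhibitory factor, fell 6.74-fold (-2.75 ± 0.21), Osmr, for oncostatin M, 4.97-fold (-2.31 ± 0.27), and Cntfr, for ciliary neurotrophic factor, 11.2-fold (-3.49 ± 0.36), each in the authors' deposited table. The cytokines themselves, Il6, Lif and Osm among them, were not listed, nor was Il6ra. The fall of Il6st and these partners stood beside that of sinusoidal endothelial markers, which line the liver's capillaries. All 20 such markers (100%) were lower in the authors' deposited table, beside 8.35% of all tested genes. As the list was chosen with earlier results of these data known, this share is a description and not a test. Log2 fold changes of these markers ran from -4.12 to -1.68, with a median of -3.24. Their implied counts summed to 12050 in WD and 91316 in ND. All 20 fell beyond the listing limit, so the direction of this sum was fixed by the listing. Cldn5, Egfl7 and Sox17 led these markers by p-value in the authors' deposited table, at -4.12, -3.50 and -4.11. Stellate cell and fibroblast markers fell in 6 of 10 cases (60%) in that table, from -2.19 to -1.18, among them Bgn, Lrat and Reln. In bulk RNA, fewer cells of a type and less RNA per cell cannot be told apart, and the part of these cells in the fall of Il6st and Il27ra was not tested.

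Among sensors and factors known to control Il12a or Il12b, most were not listed. Of 22 genes, the authors' deposited table called 3 higher and 1 lower, shares of 13.6% and 4.55% beside 3.0% and 8.35% of all tested genes. The 3 higher genes were nucleic acid and microbial protein sensors of the endosome. Tlr9, a sensor of unmethylated DNA, had 1.52 ± 0.18, Tlr12 had 1.03 ± 0.18 and its partner Tlr11, a sensor of profilin, had 2.34 ± 0.50 on the log2 scale of the authors' deposited table. Irf1, an interferon-induced factor that can act on Il12 genes, was lower there, at -1.03 ± 0.19. Irf8, Irf5, Batf3, Rel and Cd40 were not listed.

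Many genes typical of cells that respond to IL-12 were higher. Of 18 such genes, the authors' deposited table called 10 higher and none lower. That is 55.6% of the list beside 3.0% of all tested genes at the same limits of p and fold. As the list was chosen with earlier results of these data known, these shares are a description and not a test. Their median log2 fold change was 1.16, with a range from 1.0 to 1.73. After Stat4, the leading genes in the authors' deposited table were the granzyme gene Gzmb (1.51 ± 0.24) and the chemokine gene Ccl5 (1.73 ± 0.29). Ifng itself was not listed. Of 18 genes in this list, 5 are also T and NK cell markers (Eomes, Gzmb, Nkg7, Prf1 and Tbx21). By the authors' deposited table those markers rose in 12 of 23 cases (52.2%) with none lower. Klrk1, Klrd1 and Gzmb led the rise by p-value in that table. The NK receptor gene Klrk1 had 1.87 ± 0.20 and Klrd1 had 1.38 ± 0.21. The T cell genes Trac (adjusted p 0.0766) and Cd8b1 (0.132) were 2 more, listed without passing. Listed markers ran from 1.0 to 1.87. The other 9 were not listed, among them Cd3d, Cd3e, Cd3g, Cd4 and Lck. The implied counts of the 14 listed T and NK markers summed to 3034 in WD and 1077 in ND. All of these rose beyond the listing limit, so the direction of this sum was fixed by the listing. The part of T and NK cells in the rise of Il12rb1 and Il12rb2 was not tested.

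Genes known to be induced by IL-27 in T cells moved both ways in this bulk RNA. Of 12 genes, the authors' deposited table called 4 higher and 2 lower, and 6 were not listed. These calls are 33.3% and 16.7% of the list, beside 3.0% and 8.35% of all tested genes. The inhibitory receptor genes Havcr2 (1.65 ± 0.16), Tigit (1.83 ± 0.32) and Lag3 (1.38 ± 0.25) were higher in that table, as was Tbx21 with an adjusted p of 0.0115. Maf, a transcription factor that drives interleukin-10, had -1.87 ± 0.18 in the authors' deposited table, and Socs3, given above, was the other lower gene. Il10 was not listed. Havcr2, Maf and Socs3 had mean counts of 1366, 2036 and 3720, and Tigit, Lag3 and Tbx21 had 32.8, 59.2 and 37.3. The T cell genes Trac and Trbc1 had 10.6 and 62.0, and the T and NK cell markers Gzmb and Klrk1 had 613 and 601. Which cells carried the transcripts of this list was not tested. Of 12 companion cytokine and receptor genes, 2 rose in the authors' deposited table, or 16.7% beside 3.0% of all tested genes. They were Il18bp, the inhibitor of interleukin-18 (1.11 ± 0.18), and Il2rb, a receptor chain for interleukins 2 and 15 (1.42 ± 0.23). The other 10 were not listed.

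Markers of cells that make IL-12 also changed. Of 18 dendritic cell markers, the authors' deposited table called 6 higher and 2 lower. These are 33.3% and 11.1%, beside 3.0% and 8.35% of all tested genes. The implied counts of the 8 summed to 5761 in WD and 5132 in ND, with the 10 unlisted markers left out. Ccl22 (2.05 ± 0.26), Ccr7, which guides migrating dendritic cells (1.80 ± 0.27), and Klrb1b (1.77 ± 0.29) led the rise in that table. Dpp4 (-2.29 ± 0.27) and Zbtb46 (-1.13 ± 0.14) were lower in the authors' deposited table. Of 14 monocyte markers, 6 (42.9%) rose in that table, led by Ms4a4c (2.52 ± 0.25), Plac8 (1.76 ± 0.18) and Itga4 (1.28 ± 0.15). Fn1 fell (-1.13 ± 0.27), which is 7.14% of that list, near the 8.35% of all tested genes. Other lists in the authors' deposited table held 6 higher (75%) and 1 lower (12.5%) mast cell marker of 8. They also held 2 higher B cell markers of 10 (20%) and 3 higher hepatocyte markers of 10 (30%). The higher and lower shares of all these lists stand beside 3.0% and 8.35% of all tested genes. The part of these cells in the rise of Il12b, Il12a and Il27 was not tested.

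**Figure D4:**
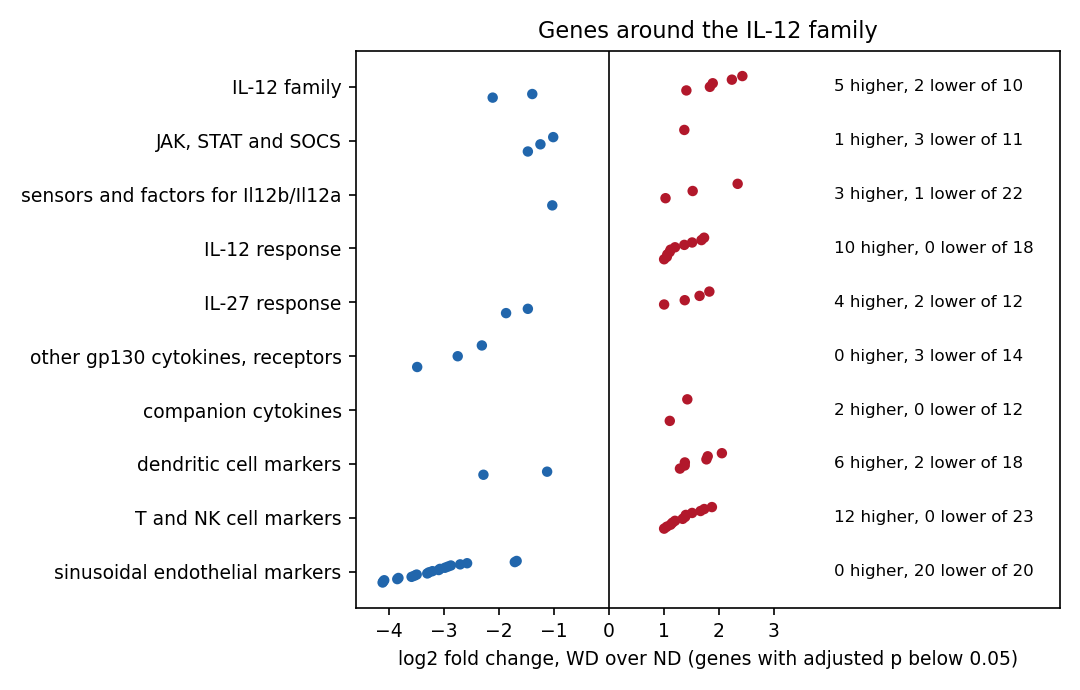
Log2 fold change, WD over ND, of each gene with an adjusted p below 0.05 in 10 gene lists around the IL-12 family, from the authors' deposited table. Each point is 1 gene, red where higher and blue where lower in WD, and the text at the right gives the counts with the size of the list. IL-12 response genes and T and NK cell markers lie wholly on the higher side, and gp130 partners and sinusoidal endothelial markers wholly on the lower side.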

How the data were processed

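RNA of 4 WD and 4 ND liver macrophage libraries was sequenced after oligo(dT) enrichment and random priming, per the labels' protocols. The submitters' processing notes name, without roles, DESeq, edgeR, featureCounts, HISAT2, STAR, STAR-Fusion and StringTie, with mm10 as the build. The deposited signal is a mean normalized count, the deposited log2 fold change and its SE are WDV over NDV, the deposited score is their ratio, and the deposited p-values and adjusted p-values complete each gene, per the file headers. No test was fitted here. A gene was called at the authors' adjusted p below 0.05, which in this table also means a fold change beyond 2. The adjusted p was empty for 77 listed genes, which were not called and are not among the 17531 tested genes. The number of tested genes was the whole number that made most ranks whole within 0.02 (91.0% of them), and on a simulated table of 15000 genes it returned 15000.

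Implied group means assume that the mean runs over 8 libraries in equal groups. The SE of 57 of 2386 genes lay below the counting limit at these means, with mean counts of at most 13.2, and none of these is a family gene. Exon lengths and coordinates come from GENCODE M21 (GRCm38), in which all 2386 identifiers were found, and promoters from RefSeq. Python 3.11.15, pandas 2.3.3 and numpy 2.4.6 were used. The members, the 16 lists (7 of pathways, 9 of cell markers) and the limits were chosen with earlier results of these data known. Named genes are all members, up to 3 called genes with the smallest p per list and direction, the members of the family list, and up to 5 terms with the smallest Benjamini p that hold 2 or more members. Genes not passing, genes named as not listed, and further response genes were named after their values were seen. Genes most like a member over samples could not be sought, with 1 fold change per gene. A gene of the signalling list is not reported here.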

Additional observations from a re-analysis of the deposited data

How the results depend on the processing

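Of 7 alternatives, an adjusted p below 0.01 left the family at 5 higher and 2 lower genes. The counts could not change under an adjusted p below 0.1, the authors' unadjusted limit or a mean count of at least 10, which all 7 genes met already. The number higher was 3 under a Bonferroni limit (without Il12a and Il12rb1), 3 where the 95% interval had to lie wholly beyond 2-fold (without Il12a and Il27) and 1 at a mean count of at least 100 (Il12b alone), and the number lower was 2 under each. The other pathway genes, 18 higher and 8 lower, numbered 11, 7 and 11 higher under these 3 settings in that order, and 5 lower under the 2-fold interval. Cell markers, 35 higher and 30 lower, numbered 19, 14 and 20 higher. Under these settings the higher genes of the IL-12 response list numbered 4, 3 and 6, and those of the T and NK list 3, 2 and 5. A count minimum removes genes by construction. No paired analysis was possible because the table holds no value per library, and for the same reason no library could be left out and no other normalization tried. The lowest mean counts were those of Il12rb1 (14.0), Il12a (16.3), Il27 (34.4) and Il12rb2 (36.9). The SE of Il12a was 1.86 times the smallest that counting allows. Counting error thus weighed less for it than for Il27 (1.45), Il12rb2 (1.40) and Il12rb1 (1.39).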
